A study of Mus musculus with 6 samples.

Results

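A set of 10 genes for surface molecules with which a dendritic cell promotes or restrains T cell activation was followed in type-2 conventional dendritic cells (cDC2s) of the mouse spleen. The genes were Cd86, Cd80, Icosl, Cd274, Pdcd1lg2, Cd40, Tnfsf9, Cd83, Dpp4 and Cd48, taken by symbol from a table of 14788 gene symbols; all 10 were found and all 10 passed the filter on low counts, as did 11504 symbols in all. RNA sequencing of 6 libraries compared 3 Arhgef1-/- libraries with 3 wild-type (WT) libraries, all from spleens on the C57BL/6 strain. Arhgef1 encodes a guanine nucleotide exchange factor for RhoA that acts downstream of receptors coupled to G12 and G13 proteins. The sources used here give no age, treatment, cell sort or deleted part of the gene, and do not say whether the allele acts outside cDC2s. Nor is it stated that each replicate was a different mouse, so a p-value here reflects the scatter among these libraries, which could be technical.

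A naive T cell needs a signal from its antigen receptor and a second one from costimulatory ligands on the presenting cell. CD80 and CD86 engage CD28 to activate and CTLA-4 to restrain the T cell, ICOSL engages ICOS, and the PD-1 ligands encoded by Cd274 (PD-L1) and Pdcd1lg2 (PD-L2) dampen the response. CD40 carries help from T cells back into the dendritic cell, and splenic cDC2s, which present antigen mainly to CD4 T cells, raise many of these molecules as they mature.

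Total counts ran from 8408325 to 11714365 in the Arhgef1-/- libraries and from 8546267 to 10702215 in the WT libraries. The Arhgef1-/- libraries carry lane 2 and the WT libraries lane 1 in their labels, so lane and genotype cannot be told apart. The targeted gene stood at 115, 128 and 144 CPM (read counts scaled to library size) in Arhgef1-/- libraries, against 287, 317 and 246 CPM in WT libraries, so every Arhgef1-/- library was below every WT library and transcripts were still counted. Itgax, the gene of the dendritic cell integrin CD11c, averaged 1262 CPM in Arhgef1-/- and 1406 CPM in WT, and Zbtb46, a transcription factor gene of conventional dendritic cells, 74.4 CPM in Arhgef1-/- and 84.6 CPM in WT. Arhgef1-/- replicate 1 stood apart in Xcr1 and Clec9a, markers of the other conventional subset, cDC1. Xcr1 was at 29.8, 10.1 and 6.14 CPM in Arhgef1-/- libraries, against 19.8, 15.1 and 11.7 CPM in WT libraries, and Clec9a at 33.5, 6.00 and 5.71 CPM in Arhgef1-/- libraries, against 18.8, 21.0 and 8.26 CPM in WT libraries. Batf3 of the same list was at 36.6, 37.5 and 39.0 CPM in Arhgef1-/- libraries, against 38.0, 36.3 and 38.6 CPM in WT libraries. Of 9 tested cDC1 markers 1 was called, Cadm1, which was lower in Arhgef1-/- (log2 fold change -1.08, edgeR adjusted p = 0.0411). Without Arhgef1-/- replicate 1 Cd86 and Dpp4 were still called lower (log2 fold changes -0.68 and -0.45). Summed cDC2 marker levels were 4700 to 5142 CPM in Arhgef1-/- and 5555 to 5729 CPM in WT, and Cd209a, Cd4, Sirpa and Clec4a4 of that list were lower in Arhgef1-/- (4 of 13 tested).

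Of the 10 genes, Cd86 and Dpp4 fell in Arhgef1-/- cells and the other 8 did not pass the test. Calls were made with edgeR's quasi-likelihood test at a Benjamini-Hochberg adjusted p under 0.05 over all 11504 genes, by which 4.58% of all tested genes were lower and 5.09% higher in Arhgef1-/-. Among the members 2 were called lower and 0 higher. The unadjusted edgeR p was under 0.05 in 4 members, all with a negative fold change, and in 2568 of all 11504 tested genes. DESeq2 and limma-voom likewise called 0 members higher, and DESeq2 added Cd83 to the lower ones. The median log2 fold change was -0.23 over the 10 members and 0.00 over all tested genes; 8 of 10 members and 5742 of 11504 genes had a negative value. In 3 members, Cd86, Cd83 and Dpp4, all Arhgef1-/- values lay below all WT values, as they did in 13.5% of all tested genes. In 0 members did they all lie above, as they did in 13.7%. Summed over the 10 genes, 0.218%, 0.210% and 0.227% of a library's counts belonged to them in Arhgef1-/-, against 0.256%, 0.249% and 0.258% in WT.

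**Figure D1:**
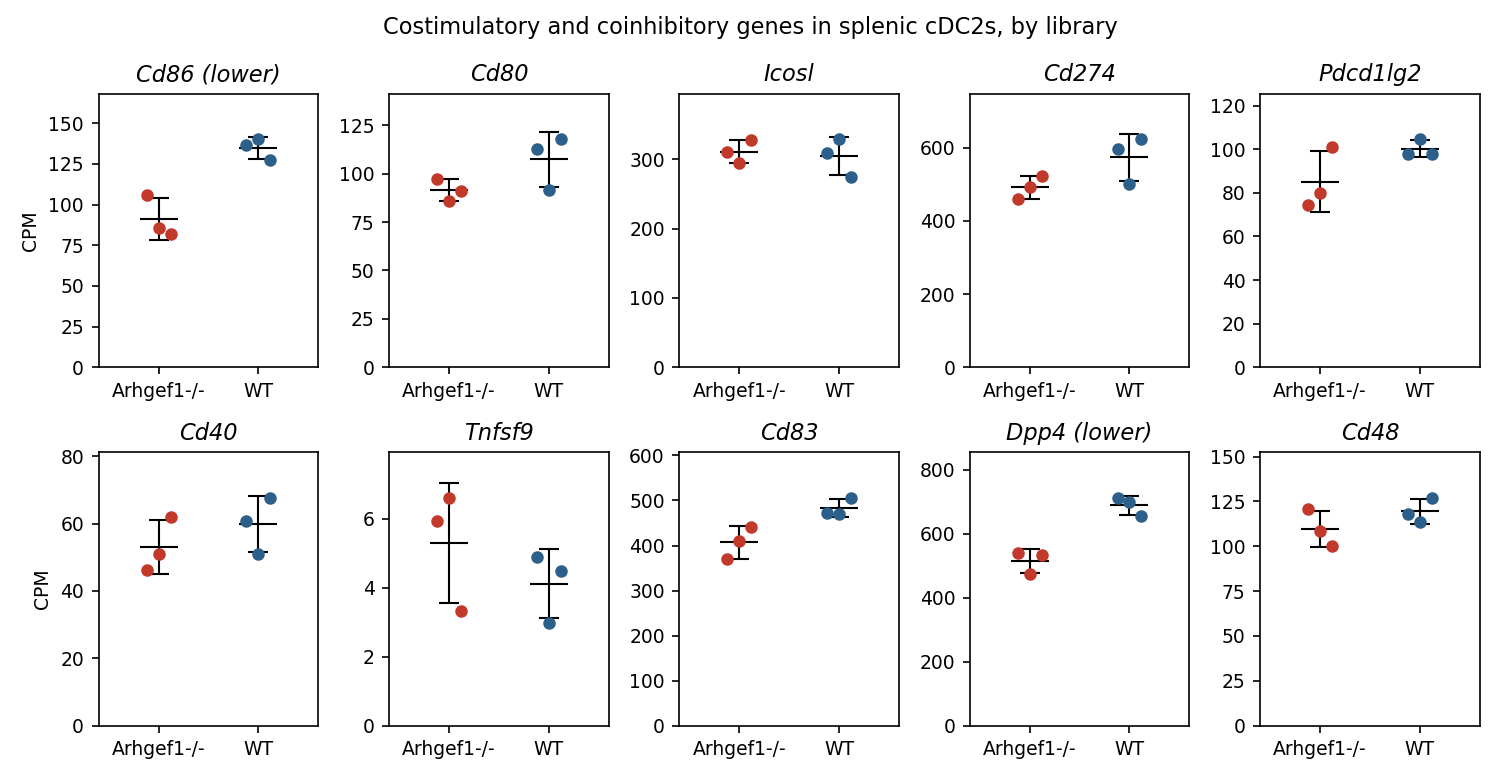
Normalised counts (CPM, linear axis from 0) of the 10 genes in each library; red points are the 3 Arhgef1-/- libraries, blue points the 3 WT libraries, and the black bars the mean ± SD. In the panels of Cd86, Cd83 and Dpp4 the red points lie below all blue points, and in the other 7 panels the genotypes overlap.

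Cd86 (ENSMUSG00000022901.13, mm10 chr16:36603869-36666081, minus strand) had the largest fall among the members. Its level was 106, 85.4 and 81.9 CPM in Arhgef1-/- libraries, against 137, 140 and 127 CPM in WT libraries. The counts behind these values were 911, 826 and 961 in Arhgef1-/- and 1425, 1218 and 1079 in WT. Every Arhgef1-/- library was below every WT library, and Arhgef1-/- replicate 1 lay nearest to WT. The mean was 91.1 ± 13.03 CPM in Arhgef1-/- and 135 ± 6.67 CPM in WT (SD, n = 3 each), or 67.7% of the WT level. The log2 fold change was -0.57 ± 0.12 (SE; edgeR adjusted p = 0.00456), with a 95% interval from -0.81 to -0.32. It ranked 346 by p among the 11504 genes.

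Cd80 (chr16:38455561-38496335, plus strand) encodes the other ligand of CD28 and CTLA-4 and lies on the same chromosome, 1789 kb from Cd86. Its level was 97.5, 86.2 and 90.9 CPM in Arhgef1-/- libraries and 113, 91.5 and 118 CPM in WT libraries. The genotypes overlapped through WT replicate 2, and the log2 fold change of -0.23 ± 0.12 did not pass the test (edgeR adjusted p = 0.267, 95% interval -0.48 to 0.02). The count ratio of Cd86 to Cd80 within a library, which needs no scaling of the libraries, was 1.09, 0.992 and 0.902 in Arhgef1-/-, against 1.21, 1.53 and 1.08 in WT. The ratios overlapped between the genotypes (exact two-sided permutation p = 0.2). Since 3 against 3 libraries can reach no less than 0.1, this test could not pass 0.05 at any size of difference, and whether Cd86 and Cd80 differ in their change is not settled by it.

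Icosl (chr10:78069302-78083913, plus strand), whose product engages ICOS on activated T cells, stood at nearly equal levels in both genotypes. It had 311, 295 and 328 CPM in Arhgef1-/- libraries and 309, 329 and 275 CPM in WT libraries, with the values intermixed. The log2 fold change was 0.03 ± 0.09 (edgeR adjusted p = 0.887), and its 95% interval, -0.16 to 0.22, corresponds to 0.897-fold to 1.17-fold of WT. The sign turned when Arhgef1-/- replicate 3 (-0.0070) or WT replicate 3 (-0.036) was left out. Per library the count ratio of Icosl to Cd86, chosen after the values were seen and given as a description, was 2.93, 3.45 and 4.01 in Arhgef1-/-, against 2.27, 2.35 and 2.16 in WT. It did not overlap between the genotypes.

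The PD-1 ligand genes Cd274 (chr19:29367455-29388095) and Pdcd1lg2 (chr19:29410919-29471161) neighbour each other on the plus strand, 22.8 kb apart. Cd274 had 460, 492 and 523 CPM in Arhgef1-/- libraries, against 596, 501 and 624 CPM in WT libraries. Pdcd1lg2 had 74.3, 80.2 and 101 CPM in Arhgef1-/- libraries, against 98.0, 105 and 97.9 CPM in WT libraries. In both genes 2 Arhgef1-/- libraries were below all WT libraries while replicate 3 overlapped with them. Cd274 had a log2 fold change of -0.22 ± 0.09 (unadjusted p = 0.0225, edgeR adjusted p = 0.136, 95% interval -0.41 to -0.04). Pdcd1lg2 had -0.23 ± 0.13 (edgeR adjusted p = 0.295, 95% interval -0.50 to 0.03). Neither was called. The count ratio of Cd274 to Pdcd1lg2 averaged 5.84 ± 0.573 in Arhgef1-/- and 5.75 ± 0.844 in WT (SD, n = 3 each; exact two-sided permutation p = 0.8).

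**Figure D2:**
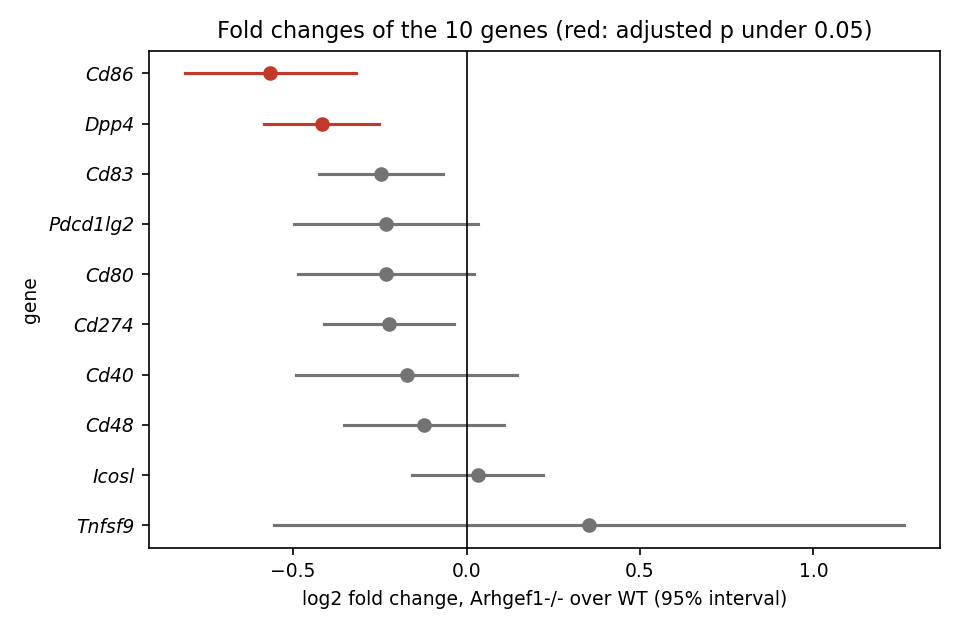
Log2 fold change, Arhgef1-/- over WT, of each of the 10 genes with its 95% interval from edgeR; genes run down the page from the lowest to the highest value of the fold change, and red marks an adjusted p under 0.05. Cd86 at -0.57 and Dpp4 at -0.42 are red, Icosl sits at 0.03, and the interval of Tnfsf9 is the widest, from -0.55 to 1.26.

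Of the TNF-related pair, Cd40 (chr2:165055627-165072948, plus strand) is the receptor for CD40 ligand and Tnfsf9 (chr17:57105325-57107757, plus strand) encodes 4-1BB ligand, a costimulator of CD8 T cells. Cd40 had 46.3, 50.9 and 61.8 CPM in Arhgef1-/- libraries, against 60.8, 51.0 and 67.7 CPM in WT libraries. The values overlapped, and the log2 fold change was -0.17 ± 0.15 (edgeR adjusted p = 0.559, 95% interval -0.49 to 0.14). Tnfsf9 was the rarest member, with raw counts of 51, 64 and 39 in Arhgef1-/- libraries, against 51, 26 and 38 in WT libraries. Its log2 fold change of 0.35 ± 0.43 (edgeR adjusted p = 0.702) had an interval from 0.681-fold to 2.40-fold of WT, so that a doubling was not distinguishable from no change at this depth.

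Cd83 (chr13:43784775-43803132, plus strand) encodes a glycoprotein of maturing dendritic cells that protects CD86 and MHC class II from removal by the ubiquitin ligase MARCH1. It had 369, 410 and 442 CPM in Arhgef1-/- libraries, against 473, 470 and 506 CPM in WT libraries. All Arhgef1-/- values were below all WT values, yet the log2 fold change of -0.25 ± 0.08 was not called by edgeR (adjusted p = 0.0768, unadjusted p = 0.00918). It was called by DESeq2 (adjusted p = 0.0423), and over all alternatives its adjusted p ran from 0.0423 to 0.263.

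Dpp4 (ENSMUSG00000035000.8, chr2:62330073-62412231, minus strand) encodes CD26, a surface peptidase that removes dipeptides from the ends of chemokines and other peptides. It had the smallest p of the members and the highest mean CPM in both genotypes. Its level was 540, 472 and 534 CPM in Arhgef1-/- libraries, against 713, 699 and 655 CPM in WT libraries. The raw counts were 4643, 4567 and 6268 in Arhgef1-/- and 7439, 6069 and 5554 in WT. Every Arhgef1-/- library was below every WT library. The mean was 516 ± 37.7 CPM in Arhgef1-/- and 689 ± 29.99 CPM in WT (SD, n = 3 each), or 74.9% of the WT level, with a log2 fold change of -0.42 ± 0.08 (edgeR adjusted p = 0.00235, 95% interval -0.58 to -0.25).

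The sequence just before the start of Dpp4, the called member for which a promoter was in the RefSeq table, is shown beside that of Icosl, the member with the smallest fold change. Both are on GRCm38.p6, read 5′ to 3′ on the strand of the gene and end before the annotated first exon, at chr2:62412232-62412481 (minus strand) for Dpp4 and chr10:78069118-78069301 (plus strand) for Icosl. Capitals mark matches, on either strand, to the interferon-type motif GAAANNGAAA or the NF-kB-type motif GGGNNNNNCC.
Dpp4: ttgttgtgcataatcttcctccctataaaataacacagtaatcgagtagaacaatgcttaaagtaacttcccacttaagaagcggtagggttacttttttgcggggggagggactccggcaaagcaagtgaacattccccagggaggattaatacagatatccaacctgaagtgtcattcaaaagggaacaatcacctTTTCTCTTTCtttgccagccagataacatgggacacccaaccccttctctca
Icosl: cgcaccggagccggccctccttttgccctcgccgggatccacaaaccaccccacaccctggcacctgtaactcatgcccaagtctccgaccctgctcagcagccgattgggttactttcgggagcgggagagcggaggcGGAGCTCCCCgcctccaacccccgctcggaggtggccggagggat

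The Dpp4 stretch held 1 interferon-type match, which 2.98% of 32851 promoter stretches of 250 bases held, and 0 NF-kB-type matches, which 45.8% held. The Icosl stretch of 184 bases held 1 NF-kB-type match and 0 interferon-type matches. The PU.1-type motif GAGGAAGT, which 2.44% of the promoter stretches held, was in neither of the 2 stretches. Of the 6 members with an entry in the table, Icosl, Cd80 and Pdcd1lg2 held the NF-kB-type motif in their 250 bases and Dpp4 the interferon-type motif. A match describes the letters and is not a binding site.

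Cd48 (chr1:171682009-171705258, plus strand) encodes a lipid-anchored ligand of CD244 and CD2. It had 121, 108 and 100.4 CPM in Arhgef1-/- libraries, against 118, 114 and 127 CPM in WT libraries. The genotypes overlapped, and the log2 fold change was -0.12 ± 0.11 (edgeR adjusted p = 0.566, 95% interval -0.35 to 0.11). The gene models of Cd274, Pdcd1lg2, Tnfsf9 and Dpp4 each overlap another annotated gene on the opposite strand, and since no strand setting is given their reads cannot be told apart from it. Cd48 overlaps Gm37010 on the same strand, so a strand setting would not separate them either.

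Per kilobase of exon, the scale on which genes can be set against each other, Cd83 was the most abundant member and Tnfsf9 the least, a span of 38.6 times in Arhgef1-/- and 58.8 times in WT. Both spans rest on the low raw counts of Tnfsf9 (26 to 64), whose change was not called, so they are not shown to differ. Mean levels in Arhgef1-/- were 158 CPM per kilobase for Cd83, 136 for Cd274, 92.4 for Cd48, 81.6 for Dpp4, 67.4 for Icosl, 43.4 for Pdcd1lg2, 24.9 for Cd86, 24.7 for Cd80, 15.6 for Cd40 and 4.10 for Tnfsf9. In WT they were 188 CPM per kilobase for Cd83, 158 for Cd274, 109 for Dpp4, 101 for Cd48, 65.9 for Icosl, 51.1 for Pdcd1lg2, 36.8 for Cd86, 29.0 for Cd80, 17.6 for Cd40 and 3.19 for Tnfsf9. The order of means differed between the genotypes in 1 place, with Cd48 above Dpp4 in Arhgef1-/- and below it in WT, and the values of these 2 genes overlapped in each genotype. Across the Arhgef1-/- libraries the values of Cd83 overlapped with those of Cd274 and those of Cd86 with those of Cd80, whereas across the WT libraries neither of these pairs overlapped. Within every library of both genotypes Cd83 was nonetheless above Cd274. Cd86 was above Cd80 in every library but Arhgef1-/- replicate 3, where they stood at 22.4 and 24.5 CPM per kilobase. On this scale Cd274 was above Cd86 and Cd80 in every library. Exon lengths came from all annotated transcripts of a gene and can overstate the length of the form these cells make.

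**Figure D3:**
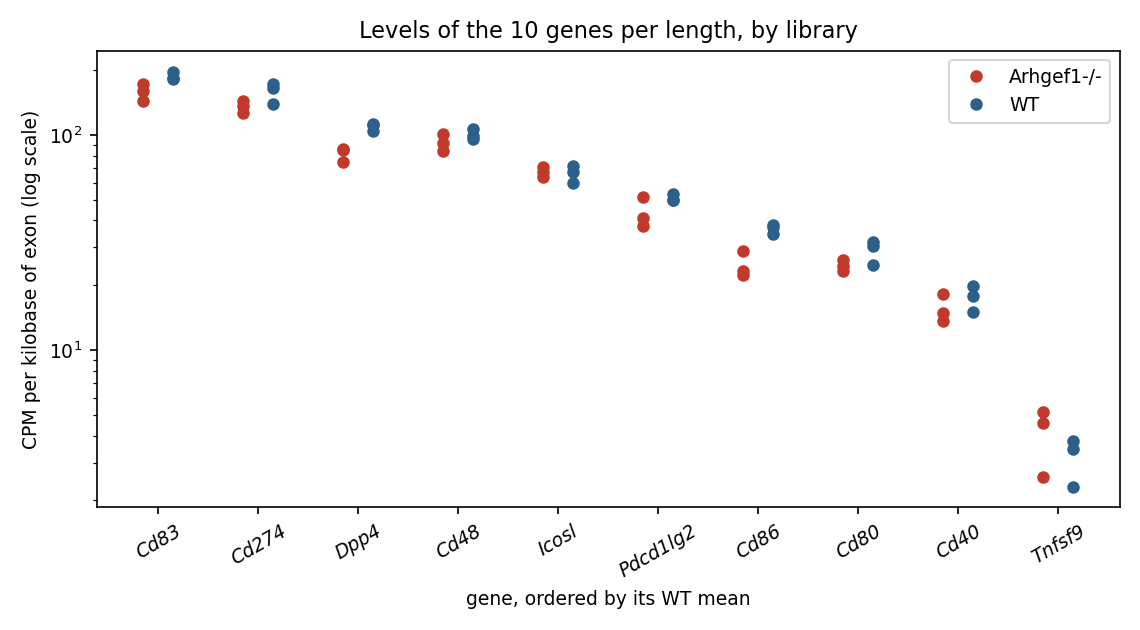
Levels of the 10 genes per kilobase of exon (CPM per kilobase, log axis), with the 3 Arhgef1-/- libraries in red on the left and the 3 WT libraries in blue on the right of each gene. Genes are ordered by their WT mean, from Cd83 at 188 to Tnfsf9 at 3.19 CPM per kilobase, and the red and blue points of Cd86, Cd83 and Dpp4 do not overlap.

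Cd86 and Dpp4 moved alike across the 6 libraries, which share a genotype contrast, with a Pearson correlation of log2 CPM of 0.93 given as a description. The correlation of Cd86 was 0.64 with Cd80, 0.71 with Cd48, 0.55 with Cd83, 0.46 with Cd274, 0.42 with Pdcd1lg2, 0.14 with Cd40, -0.09 with Icosl and -0.27 with Tnfsf9. Among 8678 other genes, all averaging 3 or more on the log2 CPM scale, the genes most like Cd86 were Hpgd (r = 0.999), D3Ertd751e (0.995) and Cep70 (0.994). Those most like Dpp4 were Mycbp2 (r = 0.998), Sort1 (0.998) and Gbp8 (0.995). A correlation over 0.9 was reached by 324 genes with Cd86 and by 385 with Dpp4.

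The wider machinery of costimulation was read from 121 other genes in 7 lists, of which 112 were in the table and 97 were tested. In Arhgef1-/- cells 11 of them fell, 5 rose and 81 did not pass, with a median log2 fold change of -0.10, against 0.00 over all tested genes. Over all tested genes 4.58% were lower and 5.09% higher, and the counts called in each list below stand beside these shares. The counts of 11 and 5 changed when a library was left out, which leaves 2 against 3. Over all genes such fits called 310 to 583 higher and 264 to 489 lower, against 586 and 527. The rises numbered 1 without Arhgef1-/- replicate 1, 3 without replicate 2 and 3 without replicate 3, and 2, 2 and 1 without WT replicates 1, 2 and 3. The falls numbered 4, 6 and 6 without WT replicates 1, 2 and 3. Those of Sema7a, Slamf8 and Cd81 and the rise of Nfkb1 passed in all 14 alternatives.

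In the B7 and butyrophilin list 1 of 6 tested genes fell. This was Icos, the receptor of ICOSL, known from T cells, at 53.9, 28.9 and 56.4 CPM in Arhgef1-/- libraries, against 71.1, 72.0 and 85.3 CPM in WT libraries (log2 fold change -0.71 ± 0.19, edgeR adjusted p = 0.0242). Its call was lost without Arhgef1-/- replicate 2 (-0.47) or without WT replicate 1 (-0.76), 2 (-0.75) or 3 (-0.62). Summed T cell markers were at 111 to 187 CPM in Arhgef1-/- and 103 to 119 CPM in WT. Tcf7, Cd5 and Il7r made up most of this sum. Cd2 averaged 1.72 CPM in Arhgef1-/- and 3.36 CPM in WT, and Lck 2.43 CPM in Arhgef1-/- and 1.34 CPM in WT. The sum therefore says little about such scarce genes, and the amount of T cells was not read from it. Of 6 tested T cell markers 1 was called, Tcf7, which was higher at 104, 56.4 and 102 CPM in Arhgef1-/- libraries, against 49.1, 58.8 and 59.1 CPM in WT libraries (0.65, edgeR adjusted p = 0.0307), and 4 of the 6 had a positive fold change. Cd3e, which defines T cells, was at 6.05, 0.103 and 1.45 CPM in Arhgef1-/- libraries, against 1.53, 2.42 and 5.90 CPM in WT libraries. The part of T cells in the value of Icos was not tested. Vsir, the gene of the inhibitory B7 relative VISTA (listed as 4632428N05Rik), had a log2 fold change of -0.38 ± 0.14 and was not called (edgeR adjusted p = 0.107), except without Arhgef1-/- replicate 1 (-0.52). Cd28 at -2.41 ± 0.96 and Btnl2 at -1.14 ± 0.74 rested on under 8 CPM in every library and did not pass; without Arhgef1-/- replicate 1, Cd28 was called (-4.68).

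Of 14 tested TNF superfamily ligands and receptors 0 were called in either direction by edgeR, and DESeq2 called Tnfsf14 (adjusted p = 0.0438). In 5 of the 14 the unadjusted edgeR p was under 0.05, as it was in 2568 of all 11504 tested genes. The leading genes were Tnfsf14 (LIGHT; -0.76 ± 0.25), Tnfsf8 (CD30 ligand; -0.73 ± 0.25), Tnfrsf18 (GITR; -0.70 ± 0.25) and Tnfrsf11a (RANK; -0.47 ± 0.18), each value a log2 fold change with its SE. The remaining gene of the 5 was Lta (lymphotoxin alpha), which had a positive value of 1.36 ± 0.55 (unadjusted p = 0.0237, edgeR adjusted p = 0.140) at 4.07, 2.59 and 7.42 CPM in Arhgef1-/- libraries, against 1.34, 2.65 and 1.53 CPM in WT libraries; it is named after its value was seen. Tnfrsf18 was called without Arhgef1-/- replicate 3 (-0.93) and Tnfrsf11a without Arhgef1-/- replicate 1 (-0.67). In the relay behind CD40, 1 of 22 genes rose and 1 fell, and the median was -0.02. Nfkb1, which encodes the p105 precursor of the NF-kB subunit p50, rose to 671 ± 36.0 CPM in Arhgef1-/-, against 511 ± 30.9 CPM in WT (0.39 ± 0.08, edgeR adjusted p = 0.00353). Tnfaip3, which encodes the NF-kB restraining enzyme A20, fell to 154 ± 8.44 CPM in Arhgef1-/-, against 205 ± 10.6 CPM in WT (-0.42 ± 0.09, edgeR adjusted p = 0.00853), and lost its call without WT replicate 1 (-0.39). The kinase gene Chuk (-0.27 ± 0.09) and the ligase gene Birc2 (-0.25 ± 0.13) did not pass with edgeR; DESeq2 called Chuk (adjusted p = 0.0399).

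In the SLAM and CD2 family, to which the product of Cd48 belongs, 3 of 9 tested genes fell and the median was -0.18. Slamf8 fell to 69.3, 62.8 and 46.2 CPM in Arhgef1-/- libraries, against 94.0, 108 and 89.9 CPM in WT libraries (-0.71 ± 0.15, edgeR adjusted p = 0.00401). Slamf7 fell to 1028 ± 92.3 CPM in Arhgef1-/-, against 1303 ± 71.9 CPM in WT (-0.34 ± 0.08, edgeR adjusted p = 0.00861), and lost its call without WT replicate 2 (-0.30). Cd84 (-0.65 ± 0.20, edgeR adjusted p = 0.0431) lost its call when any library was left out. Cd244, the receptor of CD48, did not pass (-0.18 ± 0.08, edgeR adjusted p = 0.215).

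Among 25 tested T cell contact molecules of other families 4 fell and 2 rose, with a median of -0.04. Sema7a, a lipid-anchored semaphorin gene, fell to 70.1, 59.8 and 77.7 CPM in Arhgef1-/- libraries, against 117, 105 and 105 CPM in WT libraries (-0.66 ± 0.12, edgeR adjusted p = 0.00226). Sirpa, the receptor of CD47 that marks cDC2s, fell (-0.32 ± 0.07, edgeR adjusted p = 0.00756), and lost its call without WT replicate 1 (-0.29). Ceacam1 fell (-1.07 ± 0.29), losing its call without Arhgef1-/- replicate 1 (-0.84) or any WT library (-1.13 to -1.04). The rise of Cd24a (0.75 ± 0.19) rested on 83.2, 85.5 and 46.2 CPM in Arhgef1-/- libraries, against 46.4, 36.2 and 45.3 CPM in WT libraries, which overlap, and was lost without Arhgef1-/- replicate 1 (0.63) or 2 (0.59) or WT replicate 2 (0.64) or 3 (0.79). Spn (0.49 ± 0.13) rose and Cd200r1 (-0.79 ± 0.23) fell, both named after their values were seen; Cd200r1 lost its call when any library was left out and Spn with any left out but Arhgef1-/- replicate 2.

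**Figure D4:**
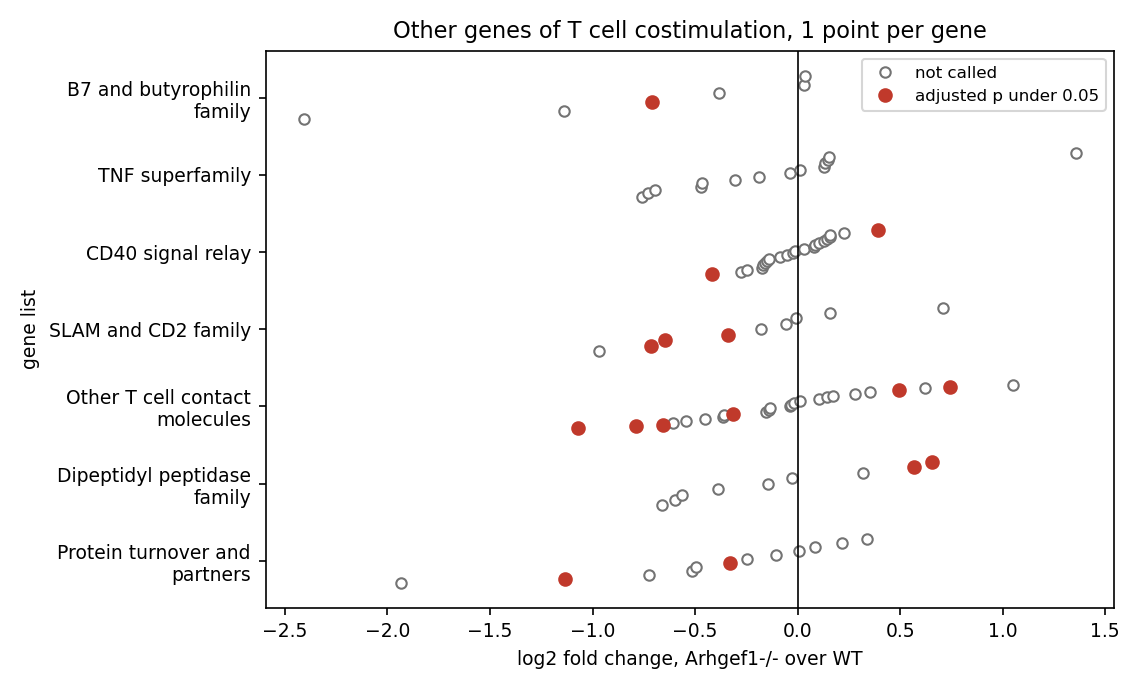
Log2 fold change, Arhgef1-/- over WT, of the tested genes in 7 lists around the costimulatory genes, 1 point a gene and 1 row a list, spread vertically by value; filled red points have an edgeR adjusted p under 0.05. The red points comprise 11 below 0 and 5 above 0, and the TNF superfamily row has none.

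In the peptidase family of Dpp4, 2 of 9 tested genes rose and 0 fell. Prep, a cytosolic prolyl peptidase gene, rose (0.65 ± 0.17, edgeR adjusted p = 0.0180) but lost its call without Arhgef1-/- replicate 1 (0.54) or 2 (0.61) or WT replicate 1 (0.66) or 3 (0.61). Dpp9, a cytosolic relative of Dpp4, rose (0.57 ± 0.18, edgeR adjusted p = 0.0480) and lost its call when any library was left out. Ada (-0.60 ± 0.29) and Dpp7 (-0.56 ± 0.28) did not pass. In the list of genes for the turnover and partners of CD86, MHC class II and PD-L1, 2 of 12 fell. Marchf1 (listed as March1), which encodes the ligase that removes CD86 from the surface, fell to 332 ± 16.7 CPM in Arhgef1-/-, against 417 ± 15.4 CPM in WT (-0.33 ± 0.08, edgeR adjusted p = 0.0151), and lost its call without Arhgef1-/- replicate 3 (-0.29) or WT replicate 1 (-0.33) or 3 (-0.30). The tetraspanin gene Cd81 fell to 40.6, 25.6 and 21.5 CPM in Arhgef1-/- libraries, against 67.6, 59.5 and 64.3 CPM in WT libraries (-1.13 ± 0.19, edgeR adjusted p = 8.44e-04). Marchf8 (March8; -1.93 ± 0.61) and Spop (-0.25 ± 0.09) did not pass with edgeR. Marchf8 was called by DESeq2 (adjusted p = 0.0293) and without Arhgef1-/- replicate 1 (-2.42), and Spop without Arhgef1-/- replicate 3 (-0.34). The values of Marchf8 rested on raw counts of only 13, 7 and 7 in Arhgef1-/- libraries, against 26, 34 and 37 in WT libraries.

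Markers of macrophages, which can carry CD86 as well, were mostly lower in Arhgef1-/-. Of 17 macrophage markers 15 fell, 0 were at 0 in all libraries of a genotype, and their summed level was 559 to 706 CPM in Arhgef1-/- and 1062 to 1560 CPM in WT. As a share of counts the list was at 0.0721%, 0.0563% and 0.0567% in Arhgef1-/- libraries, against 0.152%, 0.121% and 0.105% in WT libraries. Summed monocyte markers were likewise lower without overlap, at 414 to 503 CPM in Arhgef1-/- and 559 to 772 CPM in WT, and Csf1r, Lyz2 and Plac8 fell (3 of 6 tested). The other 3 did not pass, with log2 fold changes of -0.42 for Cx3cr1, 0.61 for Ccr2 and 0.09 for Ms4a4c. The amount of monocytes was not read from the sum. Summed plasmacytoid dendritic cell markers were higher without overlap, at 462 to 568 CPM in Arhgef1-/- and 398 to 431 CPM in WT. Of 6 tested 1 was called, Spib, which was higher, and 5 had a positive fold change. Runx2, Tcf4 and Spib made up most of this sum, and Siglech averaged 2.92 CPM in Arhgef1-/- and 2.99 CPM in WT. The amount of plasmacytoid dendritic cells was not read from the sum. Summed B cell markers were at 481 to 552 CPM in Arhgef1-/- and 429 to 503 CPM in WT, and 0 of 10 were called. The part of these cells in the falls of Cd86 and Dpp4 was not tested, and in bulk RNA fewer cells of a type and less RNA per cell cannot be told apart.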

How the data were processed

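The authors deposited raw read counts per gene symbol, 1 column per library, with no normalization, per the file headers. STAR, HTSeq and DESeq2, with the mm10 build, are named in the submitters' processing notes; the sources used here give no versions, annotation, strand setting or filter behind the 14788 symbols. Groups and replicate numbers came from the titles. Genes were filtered with filterByExpr (11504 kept), scaled by TMM (factors 0.977 to 1.02) and fitted with edgeR 4.0.16 (quasi-likelihood, genotype only) in R 4.3.3, with Benjamini-Hochberg adjustment over all tested genes; the common biological coefficient of variation was 0.189. The procedure was tested on simulated counts, with 50 changed genes per size of change. The changed genes were drawn across levels and were fewer than the 586 higher and 527 lower genes called in the data. The shares called are therefore not rates for the members. The procedure called 14% of 0.75-fold, 34% of 0.667-fold, 58% of 1.5-fold and 84% of 2-fold changes, with 4 false calls among 11358 genes. A gene that did not pass is therefore not shown to be unchanged. CPM use TMM-scaled library sizes, and standard errors and 95% intervals of log2 fold changes come from the F statistic. Positions and exon lengths are from GENCODE vM21 (mm10), promoters from RefSeq (GRCm38.p6; 6 of 10 members matched). Alternatives are in the closing section, including DESeq2 1.42.0 and limma-voom (limma 3.58.1).

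The members and gene lists were chosen with earlier results of these data known, so no set test and no p over a list is given. Of 232 list entries 16 were not in the table and 8 were matched by an older symbol. Named by rule were the members, Arhgef1 and the 4 genes with the smallest p in each of the 7 lists. The rule also named the 3 genes most correlated with each of the 2 members of smallest p. Genes named from the cell type marker lists are outside the rule and were chosen after their values were seen. Others are marked. Without a stated strand setting, overlapping genes cannot be separated, and Ceacam1, with a near-identical relative, is uncertain.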

Additional observations from a re-analysis of the deposited data

How the results depend on the processing

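Cd86 and Dpp4 were called lower in all 14 alternatives, with log2 fold changes of -0.68 to -0.49 and -0.45 to -0.36 and edgeR, DESeq2 or limma adjusted p of 1.35e-04 to 0.0306 and 1.16e-05 to 0.0207. The alternatives were edgeR scaled by DESeq2 size factors, by total counts or by upper quartiles, no filter, a filter of 5 CPM in 3 libraries, the DESeq2 Wald test, limma-voom, the replicate block and leaving out each library. No member was called higher in any of them, and Cd83 was called lower by DESeq2 alone, for a count of 3. Icosl reversed without Arhgef1-/- replicate 3 (-0.0070) and without WT replicate 3 (-0.036), with no call in either case, and ran from -0.036 to 0.091 over the left-out libraries; Tnfsf9 was removed by the stricter filter. Leaving out a library gave 310 to 583 higher and 264 to 489 lower genes in all, against 586 and 527, and moved both counts by over 1.5 times without WT replicate 1 (334 and 264), 2 (310 and 315) or 3 (383 and 351) or Arhgef1-/- replicate 2 (319 and 311). Among the wider costimulation genes it gave 1 to 3 that rose and 4 to 12 that fell, and limma-voom gave 3 that rose, against 5. Leaving out a library leaves 2 against 3, and the part of the smaller group in these shifts was not tested.

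With the replicate number as a replicate block 496 genes were higher and 449 lower, and 2 members were lower. Same-numbered libraries did not deviate together (correlations of deviations from the group means over 11504 genes of 0.03, -0.03 and -0.03), so the numbers are not taken as pairs, and not every library correlated best with its own number. Under the block Cd84, Dpp9 and Cd200r1 were not called. At the depth of Tnfsf9 the interval reached from 0.681-fold to 2.40-fold of WT.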

Other observations

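Of 15 tested markers of mature dendritic cells 1 was called higher and 1 lower, and 10 had a positive fold change. The unadjusted edgeR p was under 0.05 in 5 of the 15, of which 4 were positive, and in 2568 of all 11504 tested genes. Fscn1, which encodes the actin bundling protein fascin, was higher in Arhgef1-/- at 91.0, 40.7 and 79.5 CPM, against 53.6, 29.7 and 30.2 CPM in WT libraries (log2 fold change 0.89, edgeR adjusted p = 0.0303), with values that overlap. The chemokine gene Ccl5 was lower, at 58.4 CPM in Arhgef1-/- and 99.7 CPM in WT (-0.77, edgeR adjusted p = 0.00384). Ccr7, the receptor that guides mature dendritic cells, was at 92.3, 57.3 and 82.5 CPM in Arhgef1-/- libraries and 92.4, 64.5 and 78.7 CPM in WT libraries (-0.02, edgeR adjusted p = 0.958). Socs2 (1.13, edgeR adjusted p = 0.0741), Cd200 (1.05, edgeR adjusted p = 0.0807) and Cacnb3 (0.69, edgeR adjusted p = 0.148) did not pass. The median of the list was 0.14, and its summed level was 763 to 980 CPM in Arhgef1-/- and 735 to 887 CPM in WT.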
